A study of Mus musculus with 8 samples.

Results

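Peaks of PBRM1 and BRG1 were described at 10 genes of the bone morphogenetic protein (BMP) pathway in mouse primary uterine stromal cells. The genes were chosen by name among 21938 protein-coding genes: the ligands *Bmp2*, *Bmp4* and *Bmp7*, the receptors *Bmpr1a*, *Bmpr1b*, *Acvr1*, *Bmpr2* and *Acvr2a*, and the secreted antagonists *Nog* and *Grem1*. For each gene, a promoter peak was a peak within 2 kb of any transcription start site (TSS) that GENCODE gives for it, and its window was the gene body with 100 kb on either side. All libraries came from one state of the tissue, WT stroma on D4, from mice aged 8 to 12 weeks. The labels call D4 a day of pregnancy in one field and the horns pseudopregnant in another. From 5 to 10 uterine horns, the digested stromal cells were plated for a few hours before they were fixed. The strain of these WT mice is not given in the sources used here. Each antibody was assayed in 3 replicates, and there was no mutant and no treated group. The study calls its replicates biological, but the sources used here do not say which animals or cultures each library came from, so p-values measure only the spread between these libraries. The 2 IgG libraries were not analysed here, and the peaks were called without a control library.

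In chromatin immunocleavage sequencing (ChIC-Seq), an antibody brings a nuclease to the chromatin that its antigen occupies, and the fragments cut around it are sequenced. PBRM1 (BAF180) and the ATPase BRG1 both belong to SWI/SNF complexes, which move nucleosomes. BMP ligands are secreted dimers that bring type I and type II serine/threonine kinase receptors together, after which the type I receptor phosphorylates SMAD1, SMAD5 and SMAD9, and these enter the nucleus with SMAD4. Antagonists such as noggin and gremlin bind the ligands outside the cell and keep them from their receptors. In the mouse uterus BMP2 is known as a ligand of the decidual reaction, and some receptors of both types are known to be needed for pregnancy.

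The replicate lists rested on 8868777 to 16505239 fragments and held 21912 to 26363 PBRM1 peaks and 36656 to 40610 BRG1 peaks. The list of PBRM1 replicate 3 had the most fragments and the fewest peaks. Of listed uterine stromal marker genes, 9 of 9 had promoter peaks in both pooled lists, against 67.7% of all protein-coding genes. So did 7 of 8 epithelial, 2 of 3 endothelial, 3 of 3 smooth muscle and 0 of 3 leukocyte marker genes. In all 6 replicate lists, promoter peaks stood at 5 of 9 stromal and 2 of 8 epithelial marker genes, against 51.9% of all genes. The same held for 1 of 3 endothelial, 1 of 3 smooth muscle and 0 of 3 leukocyte marker genes. *Ptprc* and *Cd68*, defining genes of leukocytes, had a promoter peak in none of the 8 lists. The other listed leukocyte gene, *Adgre1*, had one in the pooled BRG1 list alone. A peak at a promoter does not measure its transcription, so these counts do not give the makeup of the cells.

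All 10 BMP genes had a promoter peak in both pooled lists, but at every one of them the enrichment was below that of the median gene with such a peak. In the pooled PBRM1 list 10 of 10 genes had a promoter peak, against 68.6% of all protein-coding genes, and in the pooled BRG1 list 10 of 10, against 72.1%. Both held for 10 of 10, against 67.7%. The replicates divided the genes. *Bmp2*, *Bmp7*, *Bmpr1a*, *Bmpr2*, *Acvr1* and *Acvr2a* had a promoter peak in all 6 replicate lists, which is 6 of 10 where 51.9% of all genes did. *Bmp4*, *Bmpr1b* and *Nog* had one in 5 lists and lacked only PBRM1 replicate 3. *Grem1* had one in 2 lists, both of BRG1. By antibody, 6 of 10 genes had a promoter peak in all 3 PBRM1 replicates, against 52.2% of genes, and 9 of 10 in all 3 BRG1 replicates, against 61.4%. Without PBRM1 replicate 3, 9 of 10 genes had a promoter peak in the 5 lists that remained, against 56.0% of all genes.

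**Figure D1:**
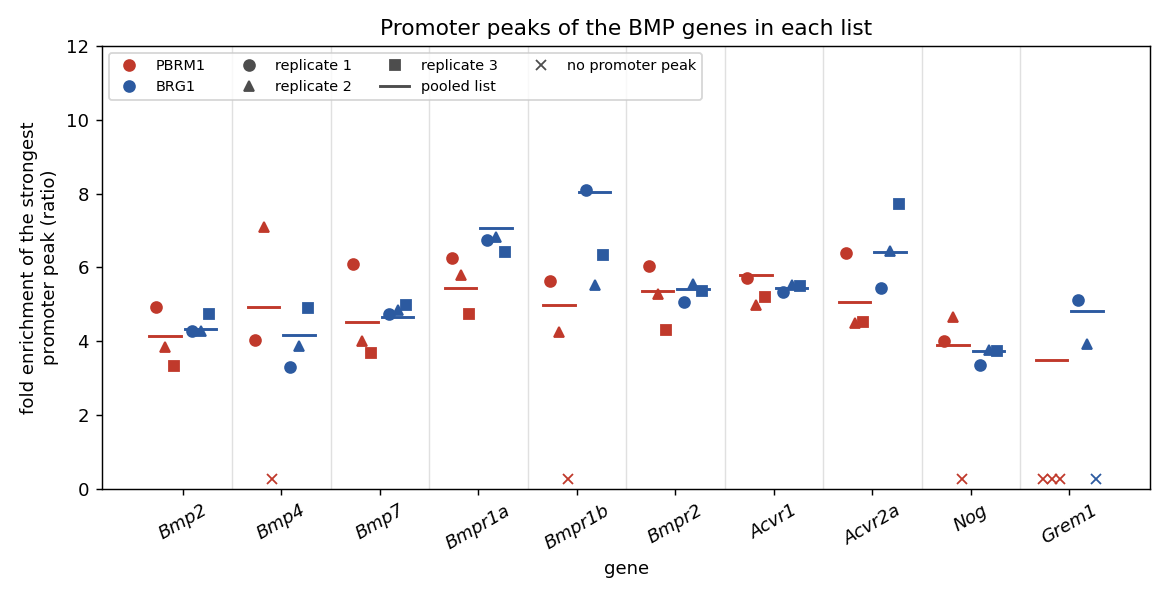
Fold enrichment over the local background (a ratio, vertical axis) of the strongest promoter peak of each gene in each list. Symbols are the replicates of PBRM1 (red) and BRG1 (blue), horizontal lines are the pooled lists, and crosses at the bottom are lists with no promoter peak. Crosses stand at *Bmp4*, *Bmpr1b*, *Nog* and *Grem1*, and the highest pooled value is that of BRG1 at *Bmpr1b*, 8.05.

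*Bmp2* encodes the ligand best known from the decidua. The gene (ENSMUSG00000027358) spans chr2:133552159-133562885 in GRCm38, on the plus strand. Its strongest promoter peak had a fold enrichment, the peak height over the local background of its own library, of 4.92, 3.84 and 3.34 in PBRM1 replicates 1, 2 and 3 and of 4.27, 4.28 and 4.72 in the BRG1 replicates. Since each value depends on the background of its own library, whether the groups of the antibodies overlap in it is a description only. At *Bmp2* they overlapped, PBRM1 with a mean of 4.03 ± 0.811 and BRG1 with 4.42 ± 0.258 (SD, n = 3 each). The pooled peaks covered the start of the gene over 1555 bp for PBRM1 and 1618 bp for BRG1, and another site, chr2:133554130-133554654, overlapped an exon further in. At that site BRG1 had a peak in all 3 replicates and PBRM1 only in replicate 1. No other protein-coding gene starts within the *Bmp2* window.

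*Bmp4* encodes a ligand close to BMP2 in sequence. The gene (ENSMUSG00000021835) spans chr14:46383520-46390669 on the minus strand and has 4 start sites. Its promoter peak reached 4.03 and 7.09 in PBRM1 replicates 1 and 2, none was called in replicate 3, and the BRG1 values were 3.31, 3.86 and 4.90. The BRG1 values all lay between those of the pair of PBRM1 libraries or below them. The strongest pooled peaks lay near an inner start site of *Bmp4*, at chr14:46386997-46388026, a stretch shared with exons of the noncoding gene *Gm15222*. Nearest the outermost start lay a weak pooled PBRM1 peak, with a fold enrichment of 2.66 and no peak in any replicate.

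*Bmp7* encodes a ligand of another subgroup. The gene (ENSMUSG00000008999) spans chr2:172868012-172940321 on the minus strand. The promoter values were 6.09, 4.01 and 3.68 in the PBRM1 replicates and 4.74, 4.83 and 4.97 in the BRG1 replicates. Replicate 1 of PBRM1 stood above all BRG1 values and the other two below them. The promoter site, chr2:172939702-172940775, had the PBRM1 and BRG1 summits at the same base, and an intronic site at chr2:172938785-172939513 within 2 kb of the start had peaks in 4 of 6 replicates.

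Among the type I receptors, *Bmpr1a* (ALK3, ENSMUSG00000021796, chr14:34410734-34503341, minus strand) had promoter peaks in all 6 replicates. The fold enrichment of the strongest peak was 6.25, 5.79 and 4.72 in the PBRM1 replicates and 6.73, 6.81 and 6.42 in the BRG1 replicates, with no overlap. The PBRM1 mean was 5.58 ± 0.782 and the BRG1 mean 6.65 ± 0.206 (SD, n = 3 each). These peaks were not all at one site: the value of BRG1 replicate 1 came from chr14:34501960-34502230, the others from chr14:34502736-34503480. At the latter, which had a peak in all 6 replicates, BRG1 replicate 1 had 6.238 and PBRM1 replicate 1 had 6.247. There the groups overlapped. The promoter is shared with the noncoding gene *Gm17110*, which starts within 2 kb.

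*Acvr1* (ALK2, ENSMUSG00000026836, chr2:58388644-58567157, minus strand) had the highest pooled PBRM1 promoter value of the 10 genes, 5.79. Its replicate values were 5.71, 4.99 and 5.19 for PBRM1 and 5.33, 5.53 and 5.51 for BRG1, which overlapped. Around the outermost start the pooled promoter peaks formed a pair of sites, and a further pooled PBRM1 peak, 3.94 with no replicate peak, lay at an inner start, at chr2:58516056-58516271. The site inside the gene, chr2:58566326-58566846, had a peak in all 6 replicates. The site upstream of it, chr2:58567160-58567684, overlapped an exon of the neighbor *Upp2* and had peaks in 3 BRG1 replicates and 1 PBRM1 replicate. The values of replicate 2, 4.99 for PBRM1 and 5.53 for BRG1, came from this upstream site. Those of replicates 1 and 3 came from the site inside the gene, where replicate 2 had 4.28 and 4.31. Peaks here cannot be assigned to one gene of the pair.

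*Bmpr1b* (ALK6, ENSMUSG00000052430, chr3:141837136-142169425, minus strand) is the longest of the 10 genes, at 332.3 kb. It had the highest pooled BRG1 promoter value, 8.05, on few fragments: the pooled BRG1 pileup was 40 fragments and the PBRM1 pileup 22. The BRG1 replicate values were 8.09, 5.51 and 6.34, and the PBRM1 values were 5.64 and 4.26, with no peak in replicate 3. A further start site deep in the gene had a BRG1 peak of 3.71 in the pooled list alone.

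The type II receptors both had promoter peaks in all 6 replicates. *Bmpr2* (ENSMUSG00000067336, chr1:59763400-59879014, plus strand) encodes the main type II receptor of BMP ligands. Its values were 6.04, 5.28 and 4.31 for PBRM1 and 5.06, 5.56 and 5.37 for BRG1, under a pooled site of 1825 bp, the widest promoter site of the 10 genes. *Acvr2a* (ENSMUSG00000052155, chr2:48814109-48903269, plus strand) encodes a type II receptor shared with activin. Its values were 6.39, 4.50 and 4.53 for PBRM1 and 5.45, 6.45 and 7.72 for BRG1. The pooled peaks of *Acvr2a* fell into a pair of sites, one upstream of the first exon at chr2:48813451-48813871 and one over it at chr2:48813939-48815096. Neither alone had a peak in all 6 replicates: the upstream site had peaks in 2 PBRM1 and 2 BRG1 replicates, and the site over the exon in 1 PBRM1 and 3 BRG1 replicates. The strongest promoter peak of *Acvr2a* thus lay at different sites in different lists. The genome sequence of 201 bp around the BRG1 summit of the upstream site, which overlaps no exon and has a G and C content of 71.6%, is given on the plus strand in GRCm38.
*Acvr2a* upstream site, chr2:48813601-48813801: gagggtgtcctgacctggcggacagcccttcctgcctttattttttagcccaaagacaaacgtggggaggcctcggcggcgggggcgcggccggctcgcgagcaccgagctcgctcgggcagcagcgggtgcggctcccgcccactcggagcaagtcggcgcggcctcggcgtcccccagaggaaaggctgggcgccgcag

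The antagonists had the lowest pooled PBRM1 promoter values, and *Nog* the lowest of BRG1. *Nog* (noggin, ENSMUSG00000048616, chr11:89300638-89302332, minus strand) is a short gene of 1.695 kb without introns. A peak over the gene, at chr11:89301311-89302579, was in both pooled lists. The best pooled BRG1 promoter peak was another one, upstream of the start at chr11:89303474-89303682, with a fold enrichment of 3.73 and no peak in any replicate. Over the gene, the fold enrichment was 4.01 and 4.64 in PBRM1 replicates 1 and 2, with no peak in replicate 3, and 3.34, 3.75 and 3.72 in the BRG1 replicates. *Grem1* (gremlin, ENSMUSG00000074934, chr2:113746164-113758646, minus strand) had no promoter peak in any PBRM1 replicate. Its BRG1 values were 5.13 and 3.92 in replicates 1 and 2, on pileups of 10 and 6 fragments, and no peak was called in replicate 3. Its pooled PBRM1 peak, 3.48, rested on a pileup of 13 fragments. *Grem1* was therefore the only one of the 10 genes whose PBRM1 promoter peak depended on pooling the replicates.

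Among the 15060 protein-coding genes with a pooled PBRM1 promoter peak, the median of the strongest promoter fold enrichment was 6.91, and among the 15818 with a BRG1 peak it was 8.76. The 10 BMP genes lay below both medians. For PBRM1 they ranged from *Grem1*, above 5.01% of these genes, to *Acvr1*, above 33.8%. For BRG1 they ranged from *Nog*, above 4.58%, to *Bmpr1b*, above 42.8%. The 5 receptors lay above 22.8% to 33.8% of genes for PBRM1 and above 17.2% to 42.8% for BRG1, the ligands above 11.9% to 22.0% and 7.18% to 10.9%, and the antagonists above 5.01% to 8.96% and 4.58% to 12.1%. By fold enrichment in the PBRM1 list every receptor stood above every ligand, and every ligand above both antagonists, but this order did not hold by q-value, where *Bmpr1b*, above 13.3% of genes, fell below all 3 ligands and *Nog*, above 22.1%, stood above *Bmp2*, above 20.6%. By the q-value of the peak in place of its fold enrichment, the 10 genes were again all below the median, with *Grem1* lowest in both lists, *Bmpr2* highest for PBRM1, above 44.6% of genes, and *Bmpr1a* highest for BRG1, above 43.7%. These are ranks among genes of the same list, with no test over the 10 genes.

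**Figure D2:**
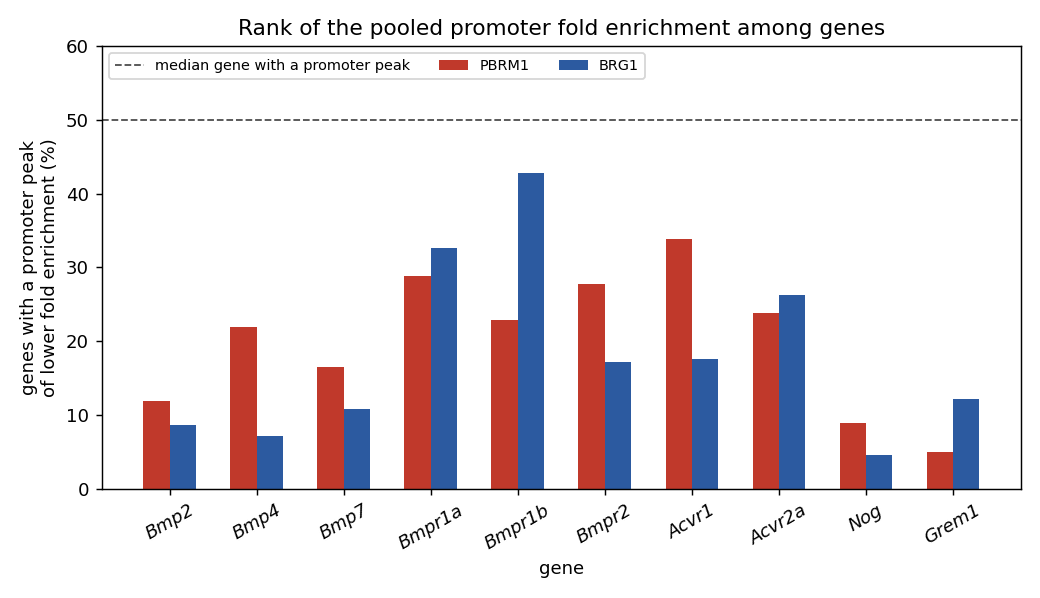
Share of genes with a pooled promoter peak of lower fold enrichment (percent, vertical axis) for each BMP gene, in the PBRM1 list (red) and the BRG1 list (blue). The dashed line marks the median gene. All 20 bars end below it, from 4.58% for BRG1 at *Nog* to 42.8% for BRG1 at *Bmpr1b*.

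RefSeq promoters, 250 bp before to 50 bp after a start, were at hand for *Bmp4*, *Bmpr1a*, *Bmpr1b*, *Bmpr2*, *Acvr1*, *Acvr2a* and *Grem1*, and not for *Bmp2*, *Bmp7* and *Nog*. The ratio of observed to expected CpG dinucleotides, taken at the richest promoter of a gene, was 0.885 at *Bmpr2*, 1.02 at *Bmpr1a*, 1.06 at *Acvr1* and 1.14 at *Acvr2a*, where the median over 27025 genes was 0.415. It was 0.792 at *Grem1*, 0.419 at *Bmp4* and 0.291 at *Bmpr1b*. The 4 genes with the highest ratio were those receptors that had a promoter peak in all 6 replicates. *Bmpr1b*, with the lowest ratio, had the highest pooled BRG1 value.

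At the 6 genes with a promoter peak in all replicates, the pileup, scaled to 1000000 fragments of the library, was highest in PBRM1 replicate 1 and lowest in PBRM1 replicate 3 among the PBRM1 libraries, for 6 of 6 genes. It ran, for example, from 3.16 to 1.33 at *Bmpr2* and from 1.92 to 0.848 at *Bmp2*. The share of all genes with this order is not given here, so it is not read as a trait of the 6 genes. The median fold enrichment of all peaks was likewise 5.80 in PBRM1 replicate 1, 5.15 in replicate 2 and 4.75 in replicate 3. The part of this library difference in the missing promoter calls at *Bmp4*, *Bmpr1b* and *Nog* was not tested.

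The antibodies were compared at these 6 genes by the percentile of the promoter peak among the peaks of its own list, ordered by q-value, because fold enrichments of different libraries rest on different backgrounds. At *Bmp2* the percentiles were 43.7, 30.7 and 12.4 for PBRM1 and 50.8, 47.9 and 54.7 for BRG1, a mean difference, PBRM1 minus BRG1, of −22.2 without overlap. The difference was −21.1 at *Acvr2a* and −13.2 at *Bmpr1a*, also without overlap, and −17.0 at *Bmp7*, −7.78 at *Acvr1* and −7.51 at *Bmpr2* with overlapping groups. A two-sided exact permutation test gave p = 0.1 for each of the 3 genes without overlap, the smallest p that 3 replicates against 3 allow, and 0.2 to 0.3 for the others. PBRM1 was lower without overlap at 3 of 6 genes, where this held for 40.1% of the 11376 genes with a promoter peak in all 6 lists, and it was higher at 0 of 6, where this held for 2.71%. The median difference over those 11376 genes was −8.80. The BRG1 lists hold more peaks, and on the rank from the top of the list the sign changed. Among the 20000 strongest peaks of each list, PBRM1 stood higher at *Acvr1* by 20.6 percentile points, at *Bmpr2* by 12.6, at *Bmp2* by 9.55, at *Bmp7* by 3.32 and at *Bmpr1a* by 1.93, and lower only at *Acvr2a*, where the difference was −3.28. On that scale the groups were apart at *Acvr1* alone (two-sided exact permutation test, p = 0.1). The strongest promoter peak of *Acvr1*, however, lay at different sites in different lists. At its promoter site with a peak in all 6 replicates, the PBRM1 ranks in the full lists were 12015, 18147 and 9244. The BRG1 ranks there were 15926, 23349 and 16143, which overlapped with them (two-sided exact permutation test, p = 0.3). The cut at 20000 keeps most of each PBRM1 list, of 21912 to 26363 peaks, and a smaller part of each BRG1 list, of 36656 to 40610. The share of all genes on that scale is not given here, so these values are not read as a trait of the 6 genes. Ordered by fold enrichment in place of q-value, the percentiles did not overlap at *Bmpr1a* alone. Between the percentile by q-value and the rank, the direction was the same only at *Acvr2a*.

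Beyond the promoters, the 10 windows covered 2913 kb and held 95 pooled PBRM1 peaks and 145 pooled BRG1 peaks. The replicates had 46, 42 and 34 PBRM1 peaks and 64, 68 and 63 BRG1 peaks there. As a share of all peaks of a list, PBRM1 had 0.172 ± 0.0249% and BRG1 0.170 ± 0.0141% (SD, n = 3 each), a difference within the spread between replicates. Of the 95 PBRM1 peaks, 80.0% overlapped a BRG1 peak by at least 1 bp (95% Wilson interval 70.9 to 86.8%, for counting error only), and 78.6% of all PBRM1 peaks did. Of the 145 BRG1 peaks, 52.4% overlapped a PBRM1 peak, the same as over all BRG1 peaks, 52.4%.

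Merged across the antibodies, the window peaks formed 161 sites, of which 73 had both antibodies, 19 PBRM1 alone and 69 BRG1 alone. Both antibodies were thus at 45.3% of the sites, the same as over all sites of the genome, 45.3%. A peak in all 6 replicates was found at 22 sites, or 13.7%, where 13092 of the 93421 sites of the genome had one, and no replicate had a peak at 74 sites. Of the 22 sites, 5 lay at a promoter of the BMP gene itself, 10 at the promoter of another gene, 1 in the body of the BMP gene and 6 elsewhere in the flanks. *Bmp7* had 48 of the 161 sites, *Acvr1* 21, *Bmpr1a* 20, *Bmpr2* 15, *Nog* 14, *Bmp2* 12, *Bmp4* 11, *Grem1* 9, *Bmpr1b* 7 and *Acvr2a* 4.

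The *Bmp7* window was by far the densest. It held 12.1 PBRM1 and 15.8 BRG1 peaks per 100 kb, above 98.1% and 98.6% of the windows of all protein-coding genes, whose medians were 3.58 and 5.37. The *Bmpr1b* window was the sparsest, with 0.564 and 0.939 peaks per 100 kb, above 16.9% and 17.1% of genes. The other 8 windows lay between 24.3% and 62.4% of genes for PBRM1 and between 22.9% and 62.0% for BRG1. The *Bmp7* sites were spread over the gene body and both flanks: 38 of the 48 sites were away from any annotated start, and 18 had no peak in a replicate.

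**Figure D3:**
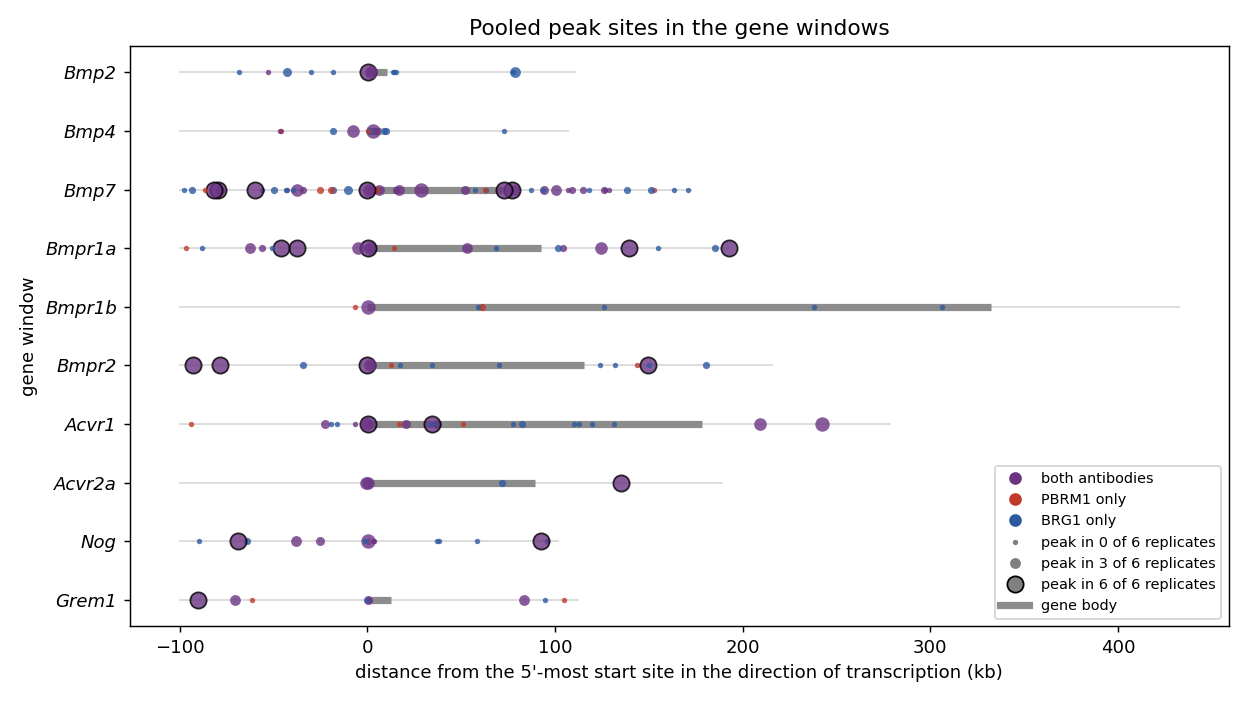
Pooled peak sites in the window of each BMP gene, by the distance (kb) from the start site that lies furthest upstream, with downstream to the right. Purple points are sites of both antibodies, red of PBRM1 alone and blue of BRG1 alone, the size gives the number of replicates with a peak, and a black rim marks 6 of 6. Sites crowd the *Bmp7* window, with 48, and are few at *Acvr2a*, with 4.

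Outside promoters, 7 sites had a peak in every replicate. They lay in the windows of *Bmp7* (1 site), *Bmpr1a* (3), *Acvr1* (1) and *Nog* (2), and 4 of them were picked out after their values were seen. The other 3, at *Bmp7*, *Bmpr1a* and *Acvr1*, were the strongest BRG1 peak shared with PBRM1 away from protein-coding start sites in their windows. A window says only that a site is near a gene, and these data do not tie a site to the gene it acts on.

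The *Bmp7* site, chr2:172867243-172867967, lay 45 bp past the 3′ end of the gene and 72.5 kb downstream of its start. It was the strongest PBRM1 peak of the *Bmp7* window, where the pooled lists gave 9.54 for PBRM1 and 6.08 for BRG1. In the replicates the values were 10.8, 8.43 and 6.81 for PBRM1 and 5.09, 6.11 and 5.59 for BRG1, so the PBRM1 mean was 8.67 ± 1.99 and the BRG1 mean 5.60 ± 0.509 (SD, n = 3 each). The site ranked 1076, 2256 and 2345 from the top of the PBRM1 lists and 12456, 9106 and 11487 from the top of the BRG1 lists, at percentiles of 95.3, 91.4 and 89.3 and of 69.3, 75.2 and 69.4. It was thus stronger in PBRM1 by rank and by percentile, without overlap on either scale, and the exact permutation test (two-sided) gave p = 0.1 for each. Of the 22 sites with a peak in every replicate, 2 were stronger in PBRM1 in this way, where 2.46% of the 13092 such sites of the genome were. The other was the promoter of *Nop58* in the *Bmpr2* window. In the opposite direction, 2 of 22 were stronger in BRG1, where 11.4% were, at the promoters of *Glud1* and *Fam117b*.

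In the *Bmpr1a* window the strongest shared site away from start sites was chr14:34362894-34364281, 97.0 kb downstream of the nearest *Bmpr1a* start and in no annotated gene. In the PBRM1 replicates it reached 7.66, 7.77 and 5.17, and in the BRG1 replicates 7.95, 6.38 and 9.67, which overlapped. A pair of sites upstream of the gene, chr14:34540601-34541285 and chr14:34548481-34549658, lay 37.6 and 45.7 kb from the start, in introns of the neighbor *Ldb3*. In the pooled lists PBRM1 reached 7.50 and 5.24 there, and BRG1 8.77 and 6.81. The pooled BRG1 value of the *Bmpr1a* promoter itself, 7.08, lay between those of these sites.

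*Acvr1* had its site in an intron, at chr2:58532229-58532793, 5.93 kb from the nearest of its start sites. The values were 7.07, 5.81 and 4.14 for PBRM1 and 6.59, 5.76 and 11.8 for BRG1, so the groups overlapped and BRG1 replicate 3 alone lay above all PBRM1 values. The *Nog* window had a site 92.5 kb downstream, chr11:89209492-89210155, and one 68.9 kb upstream, chr11:89370995-89371469, both in no annotated gene. The PBRM1 means were 4.69 ± 0.405 downstream and 4.14 ± 0.906 upstream, and the BRG1 means 5.77 ± 0.934 and 6.00 ± 1.08 (SD, n = 3 each). The BRG1 mean at the *Nog* promoter was 3.61 ± 0.229, lower than at both sites, but its mean pileup, scaled to 1000000 fragments, was higher, at 2.00 against 1.17 downstream and 1.06 upstream.

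**Figure D4:**
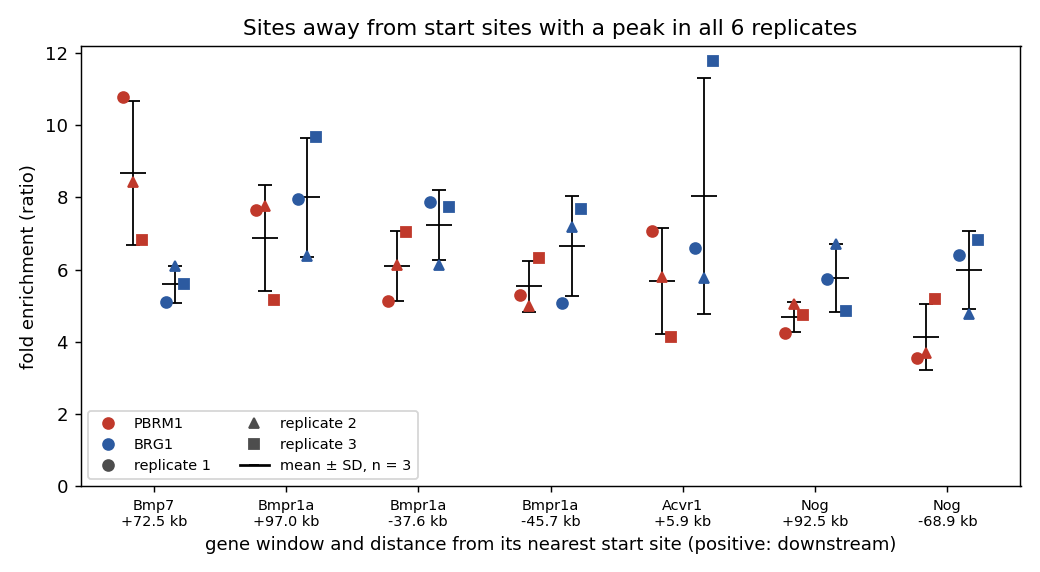
Fold enrichment (a ratio, vertical axis) in each replicate at the 7 sites away from start sites with a peak in all 6 replicates, labelled by window and distance from the nearest start of the BMP gene. Red is PBRM1, blue is BRG1, symbols are replicates, and the black bars are the mean and SD of 3 replicates. Values of different libraries rest on their own backgrounds. At the *Bmp7* site the PBRM1 values run from 6.81 to 10.8 and the BRG1 values from 5.09 to 6.11.

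The sequences under these sites are given as 201 bp around the pooled BRG1 summit on the plus strand in GRCm38, since these sites outside promoters had a peak in every library. At the second *Bmpr1a* upstream site the peak of PBRM1 replicate 3 lay in another stretch of the site and does not reach the printed one. None overlaps an exon. Capitals in the *Bmpr1a* downstream site mark an AP-1 string, TGAGTCA. Those in the *Acvr1* intronic site mark TTATCT, which is a GATA string read from the other strand. That string lies past the end of the peaks of PBRM1 replicate 1 and of BRG1 replicates 2 and 3. The G and C content was 52.2% to 70.1%.
*Bmp7* 3′ site, chr2:172867458-172867658: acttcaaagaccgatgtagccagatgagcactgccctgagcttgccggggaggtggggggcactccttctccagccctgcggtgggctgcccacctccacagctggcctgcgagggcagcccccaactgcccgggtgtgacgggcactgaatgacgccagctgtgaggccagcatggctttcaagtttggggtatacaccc
*Bmpr1a* downstream site, chr14:34363793-34363993: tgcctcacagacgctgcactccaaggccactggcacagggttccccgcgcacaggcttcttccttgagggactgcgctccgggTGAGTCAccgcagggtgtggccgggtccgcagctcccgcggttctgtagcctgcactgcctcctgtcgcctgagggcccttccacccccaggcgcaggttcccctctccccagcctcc
*Bmpr1a* first upstream site, chr14:34540978-34541178: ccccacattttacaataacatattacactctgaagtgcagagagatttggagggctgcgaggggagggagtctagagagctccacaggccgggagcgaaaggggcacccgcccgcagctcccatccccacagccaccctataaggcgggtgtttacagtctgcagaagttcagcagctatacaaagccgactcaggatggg
*Bmpr1a* second upstream site, chr14:34549440-34549640: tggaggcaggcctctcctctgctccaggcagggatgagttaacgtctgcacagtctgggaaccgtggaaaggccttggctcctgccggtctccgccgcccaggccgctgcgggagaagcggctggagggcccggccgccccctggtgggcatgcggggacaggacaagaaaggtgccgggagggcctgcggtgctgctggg
*Acvr1* intronic site, chr2:58532347-58532547: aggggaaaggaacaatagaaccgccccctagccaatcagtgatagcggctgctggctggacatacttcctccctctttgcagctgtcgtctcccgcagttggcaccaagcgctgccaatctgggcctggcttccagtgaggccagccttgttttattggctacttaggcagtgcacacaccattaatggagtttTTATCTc
*Nog* downstream site, chr11:89209607-89209807: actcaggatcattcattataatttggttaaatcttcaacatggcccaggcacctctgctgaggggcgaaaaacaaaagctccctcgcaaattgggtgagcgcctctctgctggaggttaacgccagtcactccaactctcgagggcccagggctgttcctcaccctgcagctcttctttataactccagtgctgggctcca
*Nog* upstream site, chr11:89371111-89371311: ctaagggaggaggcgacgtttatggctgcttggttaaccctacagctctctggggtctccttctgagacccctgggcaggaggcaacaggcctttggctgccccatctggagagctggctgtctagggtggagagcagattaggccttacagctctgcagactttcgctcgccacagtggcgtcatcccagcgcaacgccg

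The AP-1 string stood 17 bp before the BRG1 summit of the *Bmpr1a* downstream site, and the GATA string 94 bp after that of the *Acvr1* intronic site. In wider windows, 250 bp to either side of the summit, the *Bmp7* site and the first *Bmpr1a* upstream site each held 1 AP-1 string as well. Over all peaks of the 10 gene windows that lay away from any start, an AP-1 string stood within 250 bp of the summit in 16.4% of 55 PBRM1 and 17.9% of 95 BRG1 peaks, against 16.3% and 15.6% of all such peaks. A GATA string was in 21.8% and 16.8%, against 20.7% and 20.7%. The steroid receptor string ACANNNTGT was in 12.7% and 10.5%, against 15.2% and 15.4%. GGCGCC, a string that BMP SMADs are known to bind, was in 10.9% and 6.32%, against 6.18% and 5.94%, and GGAGCC, another, was in 40.0% and 40.0%, against 40.1% and 38.0%. The SMAD palindrome GTCTAGAC was in 0 of 95 PBRM1 and 0 of 145 BRG1 peaks, against 0.421% and 0.424% of all peaks. Of the strings the study picked from these lists, TCCCAG was in 61.8% and 55.8% of the peaks away from starts, against 52.2% and 51.2%, and TCGGTG in 14.5% and 10.5%, against 8.49% and 8.30%. Also away from starts, CCAGGGCCT was in 1.82% and 2.11%, against 2.08% and 2.13%, and GACCACT in 1.82% and 1.05%, against 5.22% and 5.32%. Within 2 kb of a start, TCCCAG was in 45.0% and 48.0%, against 50.8% and 50.4%. The window peaks away from starts had a median G and C content of 53.5% and 50.5%, against 50.5% and 49.9% of all such peaks. Their median ratio of observed to expected CpG was 0.320 and 0.291, against 0.262 and 0.267. The part of this composition in the shares was not tested. All strings were counted on both strands as exact letters, the AP-1 strings TGACTCA and TGAGTCA being one another's complement. GGCGCC and GTCTAGAC read the same on both strands. These shares are descriptions of few peaks, with no test.

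For the genes with no site of that kind, the strongest shared BRG1 peak away from protein-coding starts was weaker or rested on fewer libraries. At *Bmp4* it lay 7.75 kb upstream, at chr14:46398088-46398694, with peaks in 3 BRG1 replicates, at 6.05, 3.97 and 5.66, and in PBRM1 replicate 1, at 4.68. At *Grem1* it lay 83.7 kb downstream within the neighbor *Fmn1*, at chr2:113674832-113675085, with peaks in BRG1 replicates 1 and 3 and PBRM1 replicate 3. At *Bmp2* it was the exonic site described above, whose summit lies 2.22 kb from the start. *Bmpr1b*, *Bmpr2* and *Acvr2a* had none.

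In several windows the promoters of neighbors had higher values than that of the BMP gene. In the *Bmpr2* window the promoters of *Nop58* and *Fam117b* had pooled fold enrichments of 15.0 and 10.0 for PBRM1 and 15.4 and 14.8 for BRG1, where *Bmpr2* had 5.35 and 5.41. In the *Acvr2a* window the shared promoter of *Mbd5* and *Orc4* had 9.76 and 12.1, where *Acvr2a* had 5.06 and 6.42. In the *Grem1* window the promoter of *Arhgap11a* had 8.35 and 12.1, and in the *Bmp7* window that of *Rae1* had 8.45 and 11.0, where *Bmp7* had 4.53 and 4.64. Each of these neighbor promoters had a peak in all 6 replicates.

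Of 47 other genes of the pathway, 38 had a promoter peak in both pooled lists, or 80.9%, and 25 in all 6 replicates, or 53.2%. Over all protein-coding genes these shares were 67.7% and 51.9%. All 6 SMAD genes had one in every replicate. The receptor-activated *Smad1*, *Smad5* and *Smad9* had pooled PBRM1 values of 6.89, 7.53 and 5.16, and BRG1 values of 10.7, 8.40 and 6.53. Their partner *Smad4* had 8.14 and 10.9. The inhibitory *Smad6* and *Smad7* had 4.81 and 4.81 for PBRM1 and 5.50 and 4.56 for BRG1. These and *Smad9* lay within the range of the 10 BMP genes in both lists. Of the other receptors and coreceptors 6 of 6 had both pooled peaks and 5 a peak in every replicate, with *Bambi*, a pseudoreceptor that inhibits the pathway, highest at 8.32 and 10.9. Of nuclear targets and partners 9 of 9 had both and 7 a peak in every replicate. Of other ligands 7 of 11 had both pooled peaks, or 63.6%, and 3 a peak in every replicate, or 27.3%. Of other antagonists and modulators 10 of 15 had both, or 66.7%, and 4 a peak in every replicate, or 26.7%. For both pooled peaks these secreted factors were thus near the share of all genes, and for every replicate below it. *Bmp5*, *Bmp10* and *Bmp15* and the antagonists *Cer1*, *Sost* and *Sostdc1* had a promoter peak in none of the 8 lists. The difference between these groups was not tested.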

How the data were processed

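Used were the deposited ChIC-Seq peak lists of PBRM1 and BRG1 in WT primary uterine stromal cells on D4, which are 3 replicate lists and 1 pooled list per antibody. The labels of each library gave its antibody and replicate number. Per the submitters' processing notes and the methods, the authors trimmed reads with cutadapt, aligned them with Bowtie2 to GRCm38.p5 (mm10), removed duplicates and called peaks with MACS 2.2.7.1 at a q-value of 0.05, with a window of 10000 bp for the regional background and without a control. Per the labels each library used 50000 cells fixed for 5 minutes, while the methods state wider ranges. The deposited pileup is a signal in whole fragments that the authors did not scale. The deposited fold enrichment is a ratio to the local background, and the deposited −log10 q-value ranks peaks within a list. A peak called against the local background can also mark open chromatin. PBRM1 replicates had 8868777 to 16505239 fragments and BRG1 replicates 11506964 to 14595089.

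Peaks were matched to GENCODE M21 genes in Python 3.11.15 with numpy 2.4.6, pandas 2.3.3, scipy 1.17.1 and pysam 0.24.0, with overlaps of at least 1 bp. The count of overlapping pooled peaks was checked with bedtools 2.31.1 and was the same. Genes on the mitochondrial genome were left out of the 21938. The strongest promoter peak is the one with the best q-value. Promoter sequences were RefSeq's for GRCm38, and site sequences were read from the RefSeq genome of that build. The overlap, promoter and motif steps were tested on simulated data and recovered all planted cases.

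The genes, the pathway and marker lists and the tests were chosen with earlier results of these data known. Named genes were the 10 BMP genes, every SMAD, and the 3 other pathway genes with the highest pooled BRG1 promoter value among those with a promoter peak in all 6 replicates (*Bambi*, *Smad4* and *Smad1*), with the strongest shared site away from starts in each window. One listed pathway gene was not in the annotation under its symbol. Alternatives were other promoter distances, transcript sets, thresholds, overlaps and flanks, peaks found in all 3 replicates, other scales for the percentile, a replicate block and each replicate left out in turn.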

Additional observations from a re-analysis of the deposited data

How the results depend on the processing

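The count of 10 genes with a pooled promoter peak kept its size within 1.5 times at promoter distances of 1000 and 5000 bp, with protein-coding transcripts only, with the summit inside the interval and at a −log10 q of at least 5. The count in all 6 replicate lists fell from 6 to 4 at that q, without *Bmp2* and *Bmp7*. At a fold enrichment of at least 5 the pooled count fell to 4 for PBRM1, 5 for BRG1 and 4 for both, and 0 genes passed in all 6 replicates. With pooled peaks that overlap a peak in all 3 replicates the pooled count was 5 for PBRM1, 9 for BRG1 and 5 for both. Each replicate was also left out in turn, and each remaining replicate had to have an overlapping peak. The pooled count was then 5 to 8 for PBRM1, 9 to 10 for BRG1 and 5 to 8 for both. The count in all remaining replicate lists was 6 to 9, highest without PBRM1 replicate 3. That call held for 51.9% to 52.9% of all genes, and for 56.0% without PBRM1 replicate 3. Shares of all genes under the other settings of this paragraph are not given here.

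The windows held 38 PBRM1 and 52 BRG1 peaks with flanks of 2000 bp, 91 BRG1 peaks at a −log10 q of at least 5, and 23 and 36 peaks that overlap a peak in all 3 replicates. These are smaller by construction. With each replicate left out in turn there were 25 to 28 PBRM1 and 41 to 47 BRG1 peaks. The share of PBRM1 peaks that overlap a BRG1 peak was 89.4% at the stricter q, 95.7% for peaks in all 3 replicates, 88.0 to 100% with a replicate left out and 65.3% where 50% of both peaks had to overlap. The cause of these shifts was not tested.

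The percentile difference at promoters changed sign among the 20000 strongest peaks at *Bmp2* (9.55), *Bmp7* (3.32), *Bmpr1a* (1.93), *Bmpr2* (12.6) and *Acvr1* (20.6). Ordered by fold enrichment it kept its sign, but the groups stayed apart only at *Bmpr1a* (exact permutation p = 0.1), with p = 0.3 at *Bmp2* and 0.2 at *Acvr2a*, and the difference at *Acvr1* was −1.75. It kept its sign at all 6 genes with each replicate left out. With a replicate block (two-sided exact sign-flip test, smallest possible p = 0.25), the differences were as before, −22.2 at *Bmp2* to −7.51 at *Bmpr2*. The p-values of that test were 0.25, and 0.5 at *Acvr1*. Without the block the smallest possible p was 0.1, so these p-values cannot show whether the block mattered. Same-numbered libraries of the antibodies did not deviate together: the correlation of their promoter percentiles, as deviations from the antibody's mean over 11376 genes, was −0.0113, −0.00739 and 0.0124 for numbers 1, 2 and 3, so the numbers were not taken to pair the libraries. Pileups of 6 to 22 fragments limit what can be said of *Grem1* and *Bmpr1b*.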

Other observations

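The pooled BRG1 list held 2 peaks beside *Nog* with no peak in any replicate list, although they were higher than the promoter peak itself. The peak at chr11:89299169-89299398, just past the 3′ end of the gene, had a pileup of 2.09 per 1000000 fragments and a fold enrichment of 4.13, and that at chr11:89303474-89303682, upstream of the start and within the noncoding gene *Gm2018*, had 1.77 and 3.73. The peak over the gene had 1.61 and 3.16, and was called in 3 of 3 BRG1 replicates. These peaks were picked out after their values were seen. The pooled PBRM1 list had a peak at the downstream site alone, at 3.90. The peak over *Nog* was wider, at 1221 bp, than the upstream peak, at 209 bp.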
